A study of Mus musculus with 12 samples.

Results

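Liver transcripts of 37 genes that carry fatty acids into mitochondrial beta-oxidation and on to ketone bodies were followed in 12 mice. The genes were chosen by a list of symbols drawn up for acyl-CoA synthesis, the carnitine shuttle, beta-oxidation, electron transfer and ketone body metabolism, and all 37 were found among the 55357 Ensembl genes of the count table. All 37 also had enough counts to enter the test, which covered 17358 genes. Each mouse was a male C57BL/6J animal with both Ppara alleles floxed. KO mice (PPARa fl/fl AlbuminCre Tg/+) also carried a Cre transgene under the albumin promoter, which is active in hepatocytes, and WT mice (PPARa fl/fl AlbuminCre +/+) did not. The deletion was thus aimed at hepatocytes, and Ppara in other liver cells was not measured on its own. From 7 to 13 weeks of age the mice received chow or CDAHFD, a diet rich in fat, made with free L-amino acids in place of protein and lacking choline, for 6 weeks. There were 4 WT chow, 2 KO chow, 3 WT CDAHFD and 3 KO CDAHFD libraries, each taken as 1 mouse.

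Mitochondrial beta-oxidation shortens fatty acids in repeated rounds. Acyl-CoA synthetases first join the acid to coenzyme A, and long chains then cross the inner membrane as carnitine esters. Within the matrix a dehydrogenase, a hydratase, a second dehydrogenase and a thiolase act in turn, the first passing its electrons through the electron transfer flavoprotein to the respiratory chain. Liver turns much of the resulting acetyl-CoA into ketone bodies for export during fasting. PPARα is a nuclear receptor that binds fatty acids and is known for driving many of these genes in hepatocytes, through response elements made of a pair of half-sites 1 base apart.

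Total counts ran from 29906785 to 43551003 per library with a median of 36989922, and the 37 genes took 0.611% to 0.864% of them. Levels are given as counts per 1000000 (CPM) after scaling by the trimmed mean of M values (TMM), and a gene is called changed at a Benjamini-Hochberg adjusted p under 0.05 in the quasi-likelihood test of edgeR over 17358 genes. Fold changes are on the log2 scale with their standard error (SE). Ppara itself stood at 120, 96.2, 238 and 226 CPM in WT chow, at 14.4 and 38.7 CPM in KO chow, at 59.5, 75.5 and 73.5 CPM in WT CDAHFD and at 36.3, 20.7 and 51.9 CPM in KO CDAHFD. No KO library reached a WT library. The log2 difference was -2.68 ± 0.50 for KO chow against WT chow (edgeR adjusted p = 0.00111), -1.29 ± 0.40 for WT CDAHFD against WT chow (edgeR adjusted p = 0.0163), and -0.94 ± 0.42 for KO CDAHFD against WT CDAHFD, which missed the threshold (edgeR adjusted p = 0.547). Reads from undeleted exons and from cells without Cre were not separated.

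Against WT chow, most of the genes were called lower in each single change taken by itself. In KO chow 22 of 37 were called lower and 5 higher, where 17.0% of all genes tested were called lower and 22.0% higher. In WT CDAHFD the count was also 22 lower and 5 higher, where 25.0% of all genes were lower and 26.1% higher. The median log2 fold change of the 37 was -0.59 and -0.53, beside 0.00 and -0.05 over all genes. In KO CDAHFD against WT chow 26 were lower and 5 higher, with a median of -0.95, where 25.4% of all genes were lower and 26.9% higher. Scaling by total count alone, without TMM, put the median of all genes at 0.40, 0.51 and 0.57 in these 3 comparisons, and it turned the sign of the genes' own median in WT CDAHFD to 0.03. Relative to all genes the genes' median was then -0.59, -0.48 and -0.91, a value that can hardly change because the scaling shifts all genes nearly alike. The 3 comparisons share the same 4 WT chow libraries. In bulk liver RNA, fewer hepatocytes and less RNA per hepatocyte cannot be told apart. Of 7 hepatocyte markers found, 6 were called lower in KO chow and all 7 in WT CDAHFD, with medians of -0.72 and -0.87, and their summed level ran from 83674 to 100416 CPM in WT chow, 70725 to 81135 CPM in KO chow, 44701 to 54187 CPM in WT CDAHFD and 42214 to 56437 CPM in KO CDAHFD. The part of this in the genes' fall was not tested.

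**Figure D1:**
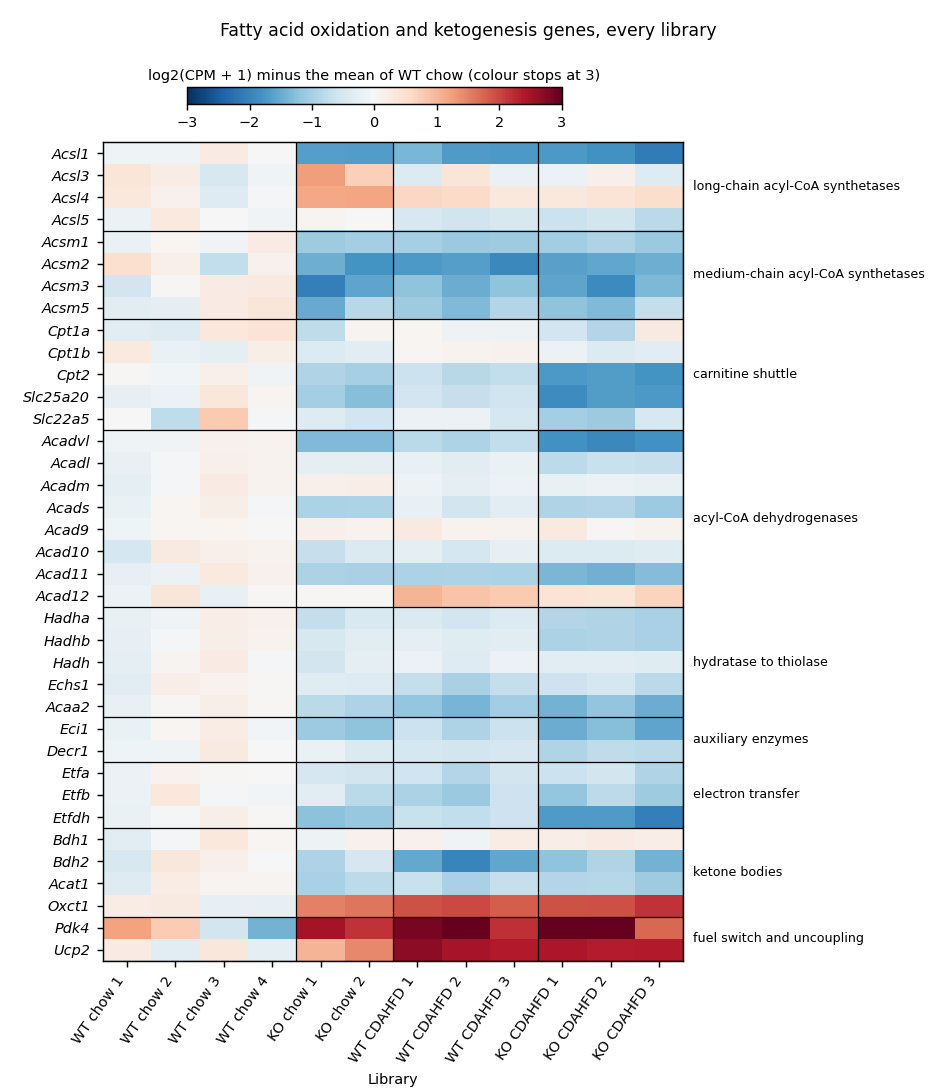
Each row is a gene, grouped by role, and each column a library, and colour gives log2(CPM + 1) minus the mean of the 4 WT chow libraries, with TMM scaling. Blue covers most rows from acyl-CoA synthetases to electron transfer outside WT chow, deepest in KO CDAHFD for Cpt2, Slc25a20, Acadvl and Etfdh, while Oxct1, Pdk4 and Ucp2 are red.

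Acyl-CoA synthetases activate fatty acids, and those of the liver split by chain length and by direction. Acsl1, the main long-chain synthetase of liver, had 1307, 1321, 1689 and 1452 CPM in WT chow. It had 457 and 450 CPM in KO chow, 552, 441 and 434 CPM in WT CDAHFD, and 435, 405 and 336 CPM in KO CDAHFD. The WT chow range lay far above all 8 other libraries, which overlapped among themselves apart from KO chow and KO CDAHFD. The log2 fold change was -1.67 ± 0.17 in KO chow (edgeR adjusted p = 7.64e-06) and -1.60 ± 0.14 in WT CDAHFD (edgeR adjusted p = 1.43e-06). Acsl4, which prefers arachidonic acid, moved the other way, from 103, 89.7, 62.5 and 80.2 CPM in WT chow to 186 and 190 CPM in KO chow, 128, 124 and 103 CPM in WT CDAHFD, and 103, 110 and 120 CPM in KO CDAHFD. It was called higher by 1.16 ± 0.16 in KO chow and by 0.49 ± 0.15 in WT CDAHFD, and lower by 0.76 in KO CDAHFD against KO chow (edgeR adjusted p = 1.18e-04, 0.0137 and 0.0258). The WT CDAHFD call of Acsl4 was lost without WT CDAHFD 1 (0.435, edgeR adjusted p = 0.0597) and without WT CDAHFD 2 (0.46, edgeR adjusted p = 0.0505). It was also lost among the 8 libraries with a clock score under 0, defined below (0.295, edgeR adjusted p = 0.0749). Acsl3, a synthetase of lipid droplets and endoplasmic reticulum, stood at 38.2, 34.5, 21.1 and 27.5 CPM in WT chow, 71.7 and 49.6 CPM in KO chow, 21.9, 38.1 and 25.6 CPM in WT CDAHFD, and 26.2, 33.0 and 22.5 CPM in KO CDAHFD. Only the KO chow libraries stood apart, with a log2 difference of 0.999 ± 0.26 from WT chow (edgeR adjusted p = 0.00825), which was 0.72 without KO chow 1 and not called (edgeR adjusted p = 0.126). KO CDAHFD was lower than KO chow by 1.15 (edgeR adjusted p = 0.0302), a call kept in 13 of 19 alternatives. About 32.3% as many counts as Acsl3 had went to Utp14b, whose exons overlap it on the same strand. Acsl5, a synthetase of liver and intestine, was called lower under the diet in either genotype, by 0.53 in WT and by 0.71 in KO mice, and was at 325 to 346 CPM in KO chow against 287 to 398 CPM in WT chow.

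The medium-chain synthetases sit side by side on chromosome 7 (GRCm38, from Acsm5 at 119519463 to the end of Acsm3 at 119787513), in the order Acsm5, Acsm2, Acsm1 and Acsm3. KO chow had 17.0% of all genes called lower than in WT chow, WT CDAHFD had 25.0% and KO CDAHFD 25.4%. All 4 synthetases were called lower than in WT chow in each of these 3 groups. Acsm1, the highest of them per kilobase, had 387, 463, 413 and 525 CPM in WT chow and 205 to 232 CPM in all 8 other libraries. Its log2 fold change was -1.06 ± 0.13, -1.07 ± 0.12 and -1.04 ± 0.12 in the 3 groups in that order (edgeR adjusted p = 5.36e-05, 7.87e-06 and 8.93e-06). Acsm3 went from 67.8, 102, 118 and 119 CPM in WT chow to 23.0 and 32.6 CPM in KO chow, 42.1, 34.9 and 42.5 CPM in WT CDAHFD, and 32.4, 25.7 and 38.3 CPM in KO CDAHFD. This was a difference of -1.87 ± 0.25 in KO chow and -1.35 ± 0.21 in WT CDAHFD (edgeR adjusted p = 7.75e-05 and 1.43e-04). Acsm5 was at 149, 151, 219 and 238 CPM in WT chow, 64.2 and 103 CPM in KO chow, 87.1, 73.4 and 100.04 CPM in WT CDAHFD, and 79.9, 73.3 and 112 CPM in KO CDAHFD, with -1.18 ± 0.26 in KO chow and -1.12 ± 0.23 in WT CDAHFD (edgeR adjusted p = 0.00357 and 0.00122). Without KO chow 1, which leaves KO chow 2 alone in its group, the KO chow difference of Acsm5 was -0.858. Acsm2 was scarce, at 6.13, 4.72, 2.07 and 4.63 CPM in WT chow and 0.350 to 0.870 CPM elsewhere, from 16 to 158 counts a library, and fell by 2.69 in KO chow and by 3.08 in WT CDAHFD on the log2 scale (edgeR adjusted p = 4.16e-04 and 2.57e-05). No library outside WT chow reached the WT chow range of any of the 4. Reads that match more than 1 of these related genes could have been split between them by the counting.

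Genes of the carnitine shuttle were not all called alike, and the differences between them were not tested. Cpt1a, the outer-membrane transferase that sets the pace of long-chain entry, was not called in any of the 6 comparisons. It had 438, 428, 693 and 735 CPM in WT chow, 326 and 590 CPM in KO chow, 582, 502 and 499.9 CPM in WT CDAHFD, and 376, 299.6 and 672 CPM in KO CDAHFD, so 5 of the 8 other libraries lay within the WT chow range. The 95% interval of its log2 difference was -1.04 to 0.40 for KO chow and -0.75 to 0.51 for WT CDAHFD, both against WT chow, and -0.90 to 0.44 in KO CDAHFD against WT CDAHFD. Without KO CDAHFD 3 the difference of KO CDAHFD from WT chow went from -0.35 to -0.76 and was called (edgeR adjusted p = 0.0395). The translocase Slc25a20 and the inner-membrane transferase Cpt2, which act next, were called lower in both single changes. Scaled by total count alone, which raised the median of all genes, neither was called in WT CDAHFD, at -0.187 for Cpt2 and -0.08 for Slc25a20. Cpt2 had 207, 191, 223 and 186 CPM in WT chow, 107 and 101 CPM in KO chow, 129, 112 and 121 CPM in WT CDAHFD, and 59.9, 62.5 and 57.5 CPM in KO CDAHFD. Its 4 groups did not overlap. Against WT chow, its log2 fold change was -0.96 ± 0.11 for KO chow, -0.74 ± 0.10 for WT CDAHFD and -1.75 ± 0.10 for KO CDAHFD (edgeR adjusted p = 3.18e-05, 4.21e-05 and 5.44e-08). Slc25a20 followed the same order, with 115, 122, 176 and 145 CPM in WT chow, 67.4 and 56.4 CPM in KO chow, 92.2, 84.9 and 91.2 CPM in WT CDAHFD, and 36.6, 42.4 and 40.9 CPM in KO CDAHFD. Its differences from WT chow were -1.17 ± 0.17, -0.64 ± 0.14 and -1.81 ± 0.15 (edgeR adjusted p = 1.27e-04, 0.00206 and 6.61e-07). Slc22a5, the plasma membrane carnitine transporter, ran from 13.8 to 54.2 CPM and was called only in KO CDAHFD against WT chow (-0.99 ± 0.29, edgeR adjusted p = 0.0133). That call was lost without KO CDAHFD 1 (-0.897, edgeR adjusted p = 0.0545) and without KO CDAHFD 2 (-0.865, edgeR adjusted p = 0.0576). It was also lost when scaled by total count alone (-0.364, edgeR adjusted p = 0.314). Cpt1b, the muscle form of the outer-membrane enzyme, had 6 to 34 counts a library. It was called nowhere in the edgeR fit of all 12 libraries with TMM scaling, though some other settings called it. Its KO CDAHFD libraries, at 0.160 to 0.364 CPM, lay below those of WT CDAHFD at 0.594 to 0.677 CPM. The 4 skeletal muscle markers together stayed at or below 0.238 CPM.

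Acyl-CoA dehydrogenases open each round of oxidation. Acadvl, which codes for the enzyme of very long chains, had 268, 271, 321 and 318 CPM in WT chow, 117 and 117 CPM in KO chow, 167, 155 and 177 CPM in WT CDAHFD, and 82.8, 76.6 and 82.6 CPM in KO CDAHFD, with no overlap between groups. Against WT chow the log2 fold change was -1.33 ± 0.12, -0.83 ± 0.10 and -1.87 ± 0.11 (edgeR adjusted p = 3.87e-06, 2.52e-05 and 4.90e-08). Acad11, which handles very long and hydroxylated chains, went from 319, 332, 461 and 409 CPM in WT chow to 194 and 192 CPM in KO chow, 194, 197 and 194 CPM in WT CDAHFD, and 144, 138 and 153 CPM in KO CDAHFD. It was lower by 0.98, 0.96 and 1.39 (edgeR adjusted p = 2.23e-04, 4.61e-05 and 2.06e-06). Acads, the short-chain enzyme, fell by 0.95 in KO chow and by 0.36 in WT CDAHFD, the second of which lost its call or its sign in 6 of 19 alternatives. The medium-chain enzyme Acadm was not called in any of the 6 comparisons over all 12 libraries with TMM scaling and no covariate, at 318, 366, 453 and 413 CPM in WT chow, 429 and 441 CPM in KO chow, 345, 311 and 342 CPM in WT CDAHFD, and 331, 337 and 327 CPM in KO CDAHFD. Acadl, the long-chain enzyme, was called only in KO CDAHFD against WT chow (-0.72 ± 0.11, edgeR adjusted p = 1.07e-04). Acad9, better known for assembly of respiratory complex I, stayed between 31.9 and 42.4 CPM and was called nowhere in the same fit. Acad10 and Acad12 are neighbours on chromosome 5. Acad12 had 11.5 to 17.7 CPM in WT chow, 13.8 CPM in both KO chow libraries, 24.0 to 28.5 CPM in WT CDAHFD and 17.6 to 22.2 CPM in KO CDAHFD, a rise of 0.92 ± 0.15 in WT CDAHFD (edgeR adjusted p = 2.35e-04). Acad10 was called lower in KO chow by 0.61 (edgeR adjusted p = 0.0233) and ran from 25.3 to 45.0 CPM in WT chow against 22.4 to 31.1 CPM in the other groups. That call was kept in 13 of 19 alternatives, and its lower call in KO CDAHFD against WT chow (edgeR adjusted p = 0.0394) in 4.

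All 5 genes of the steps from hydratase to thiolase were called lower in KO chow and in KO CDAHFD against WT chow, and 4 of them in WT CDAHFD. Of all genes, 17.0%, 25.4% and 25.0% were called lower in these comparisons, in that order. Acaa2, the mitochondrial thiolase that releases acetyl-CoA, had 870, 1043, 1154 and 1047 CPM in WT chow, 580 and 542 CPM in KO chow, 460, 389 and 495 CPM in WT CDAHFD, and 381, 453 and 366 CPM in KO CDAHFD. The WT chow libraries lay above all others, and the log2 fold change was -0.87 ± 0.15 in KO chow and -1.20 ± 0.13 in WT CDAHFD (edgeR adjusted p = 6.04e-04 and 9.99e-06). Hadha and Hadhb code for the subunits of the trifunctional protein, which runs the last steps on long chains. They start head to head on chromosome 5, and GENCODE leaves 85 bases between the start of Hadha at 30155162 and that of Hadhb at 30155248. Hadha was at 463 to 625 CPM in WT chow, 331 to 395 CPM in KO chow, 367 to 407 CPM in WT CDAHFD and 275 to 295 CPM in KO CDAHFD, lower than WT chow by 0.59, 0.48 and 0.94. Hadhb ran from 230 to 309 CPM in WT chow, 195 to 215 CPM in KO chow, 209 to 224 CPM in WT CDAHFD and 138 to 145 CPM in KO CDAHFD, lower by 0.42, 0.33 and 0.96. Echs1, the short-chain hydratase, fell by 0.40 in KO chow at the edge of the threshold (edgeR adjusted p = 0.0493) and by 0.81 in WT CDAHFD. Hadh, the medium- and short-chain hydroxyacyl dehydrogenase, fell by 0.42 in KO chow (edgeR adjusted p = 0.0419) and was not called in WT CDAHFD. The calls of Acaa2 against WT chow were kept in all 19 alternatives. Of the 19, the KO chow call was kept in 5 for Echs1, 7 for Hadh and 14 for Hadhb, the WT CDAHFD call of Hadhb in 10, and the call of Hadh in KO CDAHFD against WT chow in 5. Among all genes of the 37 called against WT chow, without TMM the sign of the called value turned for Echs1 in KO chow, for Hadha, Hadhb, Acads, Decr1 and Acsl5 in WT CDAHFD, and for Hadh and Acad10 in KO CDAHFD against WT chow.

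Unsaturated chains need helper enzymes. Eci1, the isomerase that moves double bonds, had 123, 148, 165 and 135 CPM in WT chow, 65.8 and 61.3 CPM in KO chow, 90.7, 73.9 and 90.7 CPM in WT CDAHFD, and 50.3, 58.2 and 46.8 CPM in KO CDAHFD, so that no group overlapped another. Against WT chow it was lower by 1.17, 0.75 and 1.46 (edgeR adjusted p = 5.87e-05, 3.40e-04 and 1.42e-06). Decr1, the dienoyl-CoA reductase, had 186, 188, 245 and 203 CPM in WT chow, 178 and 150 CPM in KO chow, 141, 138 and 143 CPM in WT CDAHFD, and 109, 120 and 116 CPM in KO CDAHFD. It was called lower under the diet, by 0.54 in WT mice (edgeR adjusted p = 0.00159), and not in KO chow (edgeR adjusted p = 0.0619).

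The electron transfer flavoprotein collects electrons from the dehydrogenases, and its 3 genes were lower in every group than in WT chow. Etfdh, the oxidoreductase that hands the electrons to ubiquinone, fell from 354, 395, 458 and 417 CPM in WT chow to 172 and 184 CPM in KO chow, 253, 240 and 263 CPM in WT CDAHFD, and 124, 123 and 97.3 CPM in KO CDAHFD. Its groups did not overlap, and the differences were -1.19 ± 0.14, -0.69 ± 0.12 and -1.82 ± 0.12 (edgeR adjusted p = 3.06e-05, 3.88e-04 and 1.65e-07). The flavoprotein itself is built from Etfa and Etfb. Etfa had 374, 455, 434 and 426 CPM in WT chow, 298 and 285 CPM in KO chow, 278, 230 and 287 CPM in WT CDAHFD, and 269, 285 and 224 CPM in KO CDAHFD, lower by 0.54, 0.67 and 0.70 (edgeR adjusted p = 0.0084, 5.28e-04 and 3.53e-04). Etfb had 32.4, 45.8, 35.4 and 34.3 CPM in WT chow, 29.4 and 20.6 CPM in KO chow, 18.4, 16.3 and 23.6 CPM in WT CDAHFD, and 16.0, 20.8 and 16.9 CPM in KO CDAHFD, lower by 0.56, 0.93 and 1.05 (edgeR adjusted p = 0.0404, 7.84e-04 and 3.04e-04), the first of which kept its call in 12 of 19 alternatives.

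Ketone body genes moved in both directions. Acat1, which joins or splits acetoacetyl-CoA, had 444, 673, 616 and 619 CPM in WT chow, 295 and 334 CPM in KO chow, 366, 296 and 359 CPM in WT CDAHFD, and 314, 323 and 278 CPM in KO CDAHFD, lower by 0.90 in KO chow and by 0.79 in WT CDAHFD (edgeR adjusted p = 0.00106 and 6.29e-04). Bdh1, the mitochondrial 3-hydroxybutyrate dehydrogenase, was at 263 to 405 CPM in WT chow and 295 to 383 CPM in the other groups. It was called nowhere in the edgeR fit of all 12 libraries with TMM scaling. Bdh2, a cytosolic relative, went from 13.7, 24.7, 21.8 and 19.3 CPM in WT chow to 9.76 and 13.3 CPM in KO chow, 6.00, 4.18 and 5.92 CPM in WT CDAHFD, and 7.81, 9.95 and 6.61 CPM in KO CDAHFD. Its fall was 0.79 in KO chow and 1.89 in WT CDAHFD (edgeR adjusted p = 0.0256 and 2.13e-05), and the first kept its call in 13 of 19 alternatives. Oxct1, the transferase that lets tissues burn ketone bodies and that hepatocytes are known to lack, rose from 7.53, 7.71, 5.14 and 5.14 CPM in WT chow to 19.7 and 21.1 CPM in KO chow, 26.2, 27.7 and 24.6 CPM in WT CDAHFD, and 26.2, 26.8 and 31.5 CPM in KO CDAHFD. The log2 rise was 1.68 ± 0.17 in KO chow and 2.03 ± 0.15 in WT CDAHFD (edgeR adjusted p = 8.18e-06 and 4.01e-07).

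Pdk4 is a kinase that inhibits the pyruvate dehydrogenase complex and so spares pyruvate when fat is burned, and Ucp2 is an inner-membrane carrier. Both were called higher in KO chow and in WT CDAHFD, where many of the oxidation genes, though not all, were called lower. Pdk4 had 22.5, 16.2, 6.04 and 2.84 CPM in WT chow, 57.1 and 44.8 CPM in KO chow, 72.7, 82.0 and 46.0 CPM in WT CDAHFD, and 119, 120 and 32.7 CPM in KO CDAHFD. The lowest library outside WT chow lay above the highest in it, and the differences were 2.09 ± 0.61, 2.49 ± 0.57 and 2.92 ± 0.58 (edgeR adjusted p = 0.0165, 0.00286 and 9.57e-04). Ucp2 was at 34.6, 23.0, 37 and 23.9 CPM in WT chow, 59.99 and 80.3 CPM in KO chow, 192, 165 and 155 CPM in WT CDAHFD, and 161, 151 and 154 CPM in KO CDAHFD. Its rise was 1.24 ± 0.19 in KO chow and 2.53 ± 0.17 in WT CDAHFD (edgeR adjusted p = 2.27e-04 and 2.00e-07), and it was the 1 gene of the 37 called higher in KO CDAHFD against KO chow (1.15 ± 0.21, edgeR adjusted p = 0.01). Macrophage markers moved with Ucp2 and Oxct1. Of 7, 6 were called higher in KO chow and 6 in WT CDAHFD, none of the 7 was at 0, and their summed level was 271 to 511 CPM in WT chow, 998 to 1167 CPM in KO chow, 1325 to 1870 CPM in WT CDAHFD and 1257 to 1477 CPM in KO CDAHFD. Stellate cell markers summed to 187 to 282 CPM in WT chow and 1222 to 2262 CPM in the other groups. Of 5 cholangiocyte markers, 4 were called higher in KO chow and 5 in WT CDAHFD, none was at 0, and their summed level was 46.0 to 79.4 CPM in WT chow and 165 to 883 CPM elsewhere. The part of these cells in the rise of Ucp2, Oxct1 and Acsl4 was not tested.

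**Figure D2:**
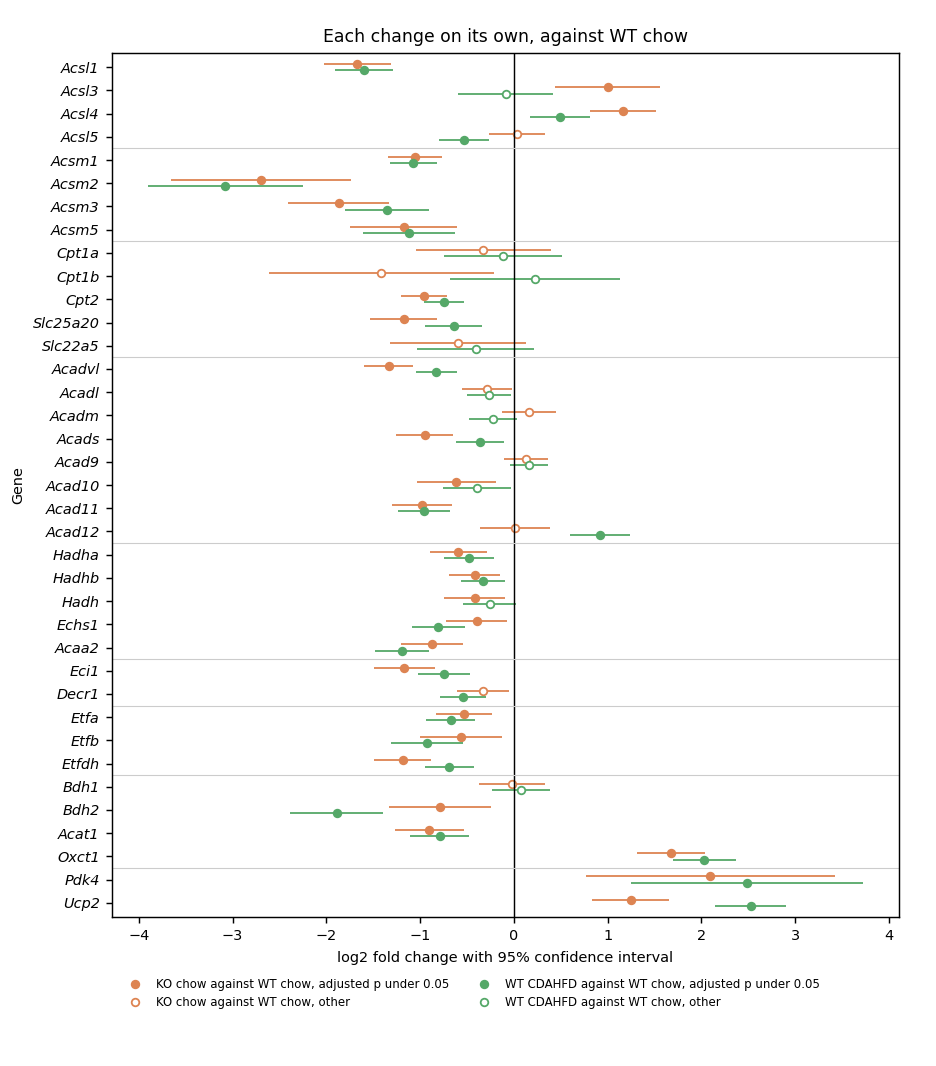
Points give the log2 fold change of each gene in KO chow (orange) and WT CDAHFD (green) against the same 4 WT chow libraries, with lines for 95% confidence intervals and filled points for an edgeR adjusted p under 0.05. Filled points left of 0 number 22 in each comparison with TMM scaling, and 14 and 9 when scaled by total count alone, beside 17.0% and 25.0% of all genes with TMM and 6.62% and 6.74% without it. Of the filled points, Echs1 turns sign without TMM in KO chow and Hadha, Hadhb, Acads, Decr1 and Acsl5 do in WT CDAHFD, and with the open ones 5 and 12 genes do.

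Ordered by CPM per kilobase of annotated exon, which counts every isoform's exons and so understates genes with long alternative exons, Acaa2 stood first in every group. In WT chow it was followed by Etfa, Acsm1, Acat1 and Acsl1, with mean levels of 678, 230, 205, 157 and 138 CPM per kb. In KO CDAHFD the first 5 were Acaa2, Etfa, Acsm1, Bdh1 and Acadm at 264, 141, 99.3, 97 and 84.8 CPM per kb. Acsl1 went from place 5 to place 12, Acadvl from 7 to 14 and Cpt2 from 11 to 17, while Pdk4 went from 33 to 16 and Ucp2 from 32 to 21. Places that lie next to each other are within the spread between mice for many pairs and were not tested.

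The genotype comparison under the diet set KO CDAHFD against WT CDAHFD, mice that differed in genotype throughout the diet. Few genes of any kind were called, 0.271% of all genes lower and 0.0864% higher, yet 6 of the 37 were lower, 16.2%, and none higher. These 6 were Cpt2, Slc25a20, Acadvl, Hadhb, Eci1 and Etfdh. By role they were 2 of 5 genes of the carnitine shuttle, 1 of 8 acyl-CoA dehydrogenases, 1 of 5 from hydratase to thiolase, 1 of 2 helper enzymes and 1 of 3 of electron transfer. Of the 14 synthetase, ketone body, Pdk4 and Ucp2 genes, 0 were called. Cpt2 was lower in KO CDAHFD than in WT CDAHFD by 1.01 ± 0.10, Slc25a20 by 1.16 ± 0.15, Acadvl by 1.04 ± 0.11 and Etfdh by 1.14 ± 0.13 on the log2 scale (edgeR adjusted p = 8.69e-04, 0.004, 8.69e-04 and 0.00127). These 4 calls were kept in all 19 alternatives, 12 of which left out 1 library each. Hadhb (-0.63 ± 0.12, edgeR adjusted p = 0.0447) and Eci1 (-0.72 ± 0.13, edgeR adjusted p = 0.0467) lay close to the threshold, kept the call in 10 and 7 of the 19, and kept the sign in all. At an unadjusted p under 0.05 edgeR had 13 of the 37 lower and 1 higher, where 4.01% of all genes were lower and 4.76% higher. DESeq2 called 9 lower and 0 higher, where it called 0.755% of all genes lower and 0.657% higher. None of the 7 hepatocyte markers was called in this comparison by edgeR or DESeq2, with a median of 0.01 and 1 higher and 0 lower at an unadjusted p under 0.05, nor was any of the 7 macrophage markers, with 0 in either direction at an unadjusted p under 0.05. Of 5 cholangiocyte markers edgeR called none, with a median of 0.91 and 4 higher at an unadjusted p under 0.05, and DESeq2 called 1 higher. Their summed level was 358 to 578 CPM in WT CDAHFD and 568 to 883 CPM in KO CDAHFD. Cidec, the 1 adipocyte marker with enough counts to be tested and one that fatty hepatocytes also express, was called lower by DESeq2 and not by edgeR, at 23.6 to 41.9 CPM in WT CDAHFD and 11.2 to 14.7 CPM in KO CDAHFD. None of the 7 stellate cell markers was called by edgeR or DESeq2, with 0 in either direction at an unadjusted p under 0.05 and a median of 0.29, and their summed level was 1485 to 1588 CPM in WT CDAHFD and 1624 to 2262 CPM in KO CDAHFD, without overlap. The part of these cells in the 6 calls was not tested.

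**Figure D3:**
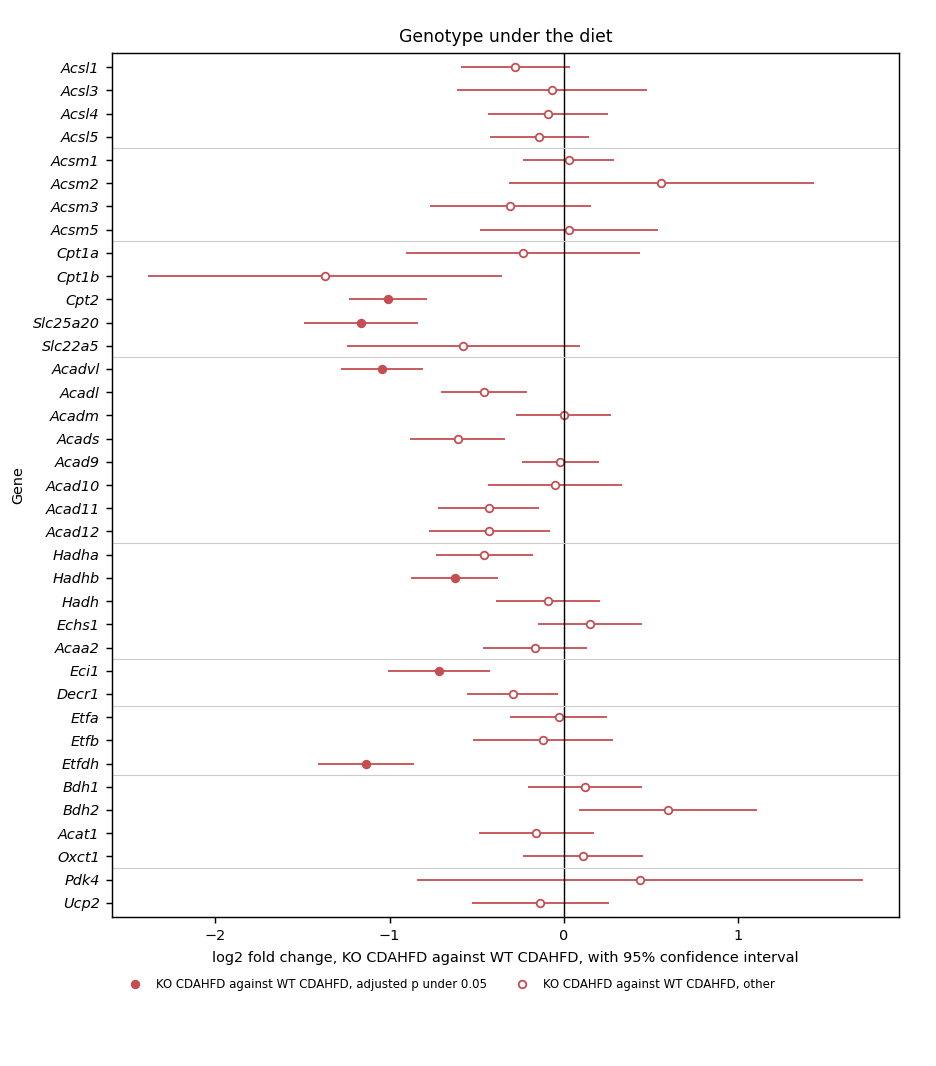
Points give the log2 fold change of each gene in KO CDAHFD (3 libraries) against WT CDAHFD (3 libraries), with lines for 95% confidence intervals and filled points for an edgeR adjusted p under 0.05. The 6 filled points, Cpt2, Slc25a20, Acadvl, Hadhb, Eci1 and Etfdh, all lie left of 0, between -1.16 and -0.63.

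Whether the deletion acted alike on the 2 diets was tested as the interaction of genotype and diet, the change by KO under CDAHFD minus the change by KO on chow. For the 4 genes with the firmest fall under the diet the interaction was not called. It was -0.05 (95% interval -0.38 to 0.27) for Cpt2, 0.01 (-0.46 to 0.48) for Slc25a20, 0.29 (-0.05 to 0.63) for Acadvl and 0.05 (-0.34 to 0.45) for Etfdh. These 4 were picked by their fall in KO CDAHFD against WT CDAHFD, which is part of the interaction. Their values depend in part on that choice and do not show that the deletion acted alike on both diets. Other genes had a called interaction. The interaction was called above 0 for 8 genes and below 0 for 3, where 8.63% of all genes were called above and 14.5% below. Scaling by total count alone gave 5 above and 10 below, where 3.89% and 24.6% of all genes were, and leaving out 1 library gave 5 to 12 above. The 8 were Acsl1, Acsm1, Acsm2, Acsm3, Acsm5, Acaa2, Bdh2 and Acat1, all of which were lower in KO chow and in WT CDAHFD and were not called in KO CDAHFD against WT CDAHFD. Of the 19 alternatives, Acat1 kept this call in 11, Acaa2 in 13, Acsm5 in 14 and Bdh2 in 18, and the other 4 kept it in all. For Acsl1 it was 1.39 ± 0.21 and for Acsm1 1.08 ± 0.18 (edgeR adjusted p = 5.12e-04 and 8.05e-04). The 3 below 0 were Acsl4, Oxct1 and Ucp2, which rose in both single changes, at -1.25 ± 0.23, -1.57 ± 0.23 and -1.38 ± 0.27 (edgeR adjusted p = 0.00167, 3.99e-04 and 0.00233). The WT chow libraries enter the interaction and both single changes with opposite signs, so the match of directions in both sets is partly built in. For the first set, the lack of a call in KO CDAHFD against WT CDAHFD, itself part of the interaction, is partly built in too. Hepatocyte markers went along with the first set, 3 of 7 being called above 0 with a median of 0.76, and macrophage markers with the second, 6 of 7 being called below 0 with a median of -2.15, and their part was not tested.

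**Figure D4:**
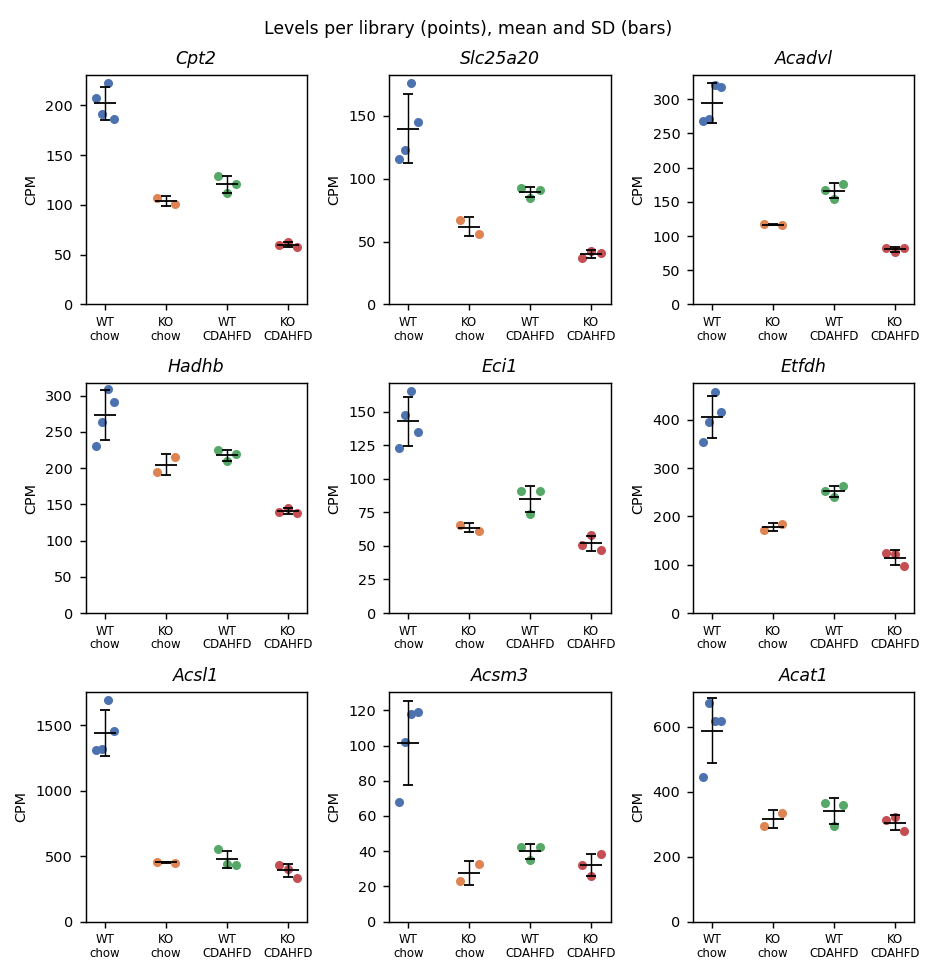
Points are libraries in CPM with TMM scaling, and bars give the mean and SD of each group (4, 2, 3 and 3 mice). In the upper 6 panels KO CDAHFD lies below every other group, at 57.5 to 62.5 CPM for Cpt2 against 112 to 129 CPM in WT CDAHFD, while for Acsl1, Acsm3 and Acat1 the KO chow, WT CDAHFD and KO CDAHFD levels lie close together below WT chow.

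Within KO mice the diet lowered 9 of the 37 and raised 1, where 2.44% of all genes were called lower and 3.76% higher. The 9 were Acsl3, Acsl4, Acsl5, Cpt2, Slc25a20, Acadvl, Hadhb, Decr1 and Etfdh. Cpt2 was lower by 0.79 ± 0.11, Acadvl by 0.54 ± 0.12 and Etfdh by 0.63 ± 0.14 (edgeR adjusted p = 0.00256, 0.0227 and 0.021). In the same comparison 4 of 7 macrophage markers (median 1.14) and 2 of 5 cholangiocyte markers (median 1.56) were called higher. Of 7 hepatocyte markers, 1 was called lower (median -0.22). None of the 7 stellate cell markers was called, with a median of 0.53. The part of these cells in the 9 lower calls was not tested. KO chow has only 2 libraries, and leaving out either of them left 1 of the 37 called lower, where 0.422% and 0.70% of all genes were, and leaving out the first left none called higher. Without KO CDAHFD 1, 2 and 3 in turn, 3, 5 and 4 were called lower, where 0.664%, 2.13% and 1.05% of all genes were.

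Sequence near the RefSeq starts of the 6 genes is shown because they fell together in KO CDAHFD. RefSeq windows (GRCm38.p6, 250 bases before to 50 after the start) were at hand for 32 of the 37 genes, 35 windows in all. The half-site AGGTCA was found on either strand in 5 of the 35, 14.3%, and in 16.3% of all 32851 windows. The full element AGGTCANAGGTCA was in none of the 35 and in 0.0396% of all, and with up to 2 mismatches in 3 of 35, 8.57%, beside 3.86% of all. The GC box GGGCGG was in 19 of 35 windows, 54.3%, and in 35.7% of all. The 6 stretches that follow are each the 80 bases nearest to the RefSeq start that hold no exon of the GENCODE basic set, written 5′ to 3′ on the gene's strand, with capitals for GC boxes on either strand.
Cpt2, chr4:107923611-107923690, minus strand: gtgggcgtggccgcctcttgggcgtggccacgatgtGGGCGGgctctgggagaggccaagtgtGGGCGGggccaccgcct
Slc25a20, chr9:108662018-108662097, plus strand: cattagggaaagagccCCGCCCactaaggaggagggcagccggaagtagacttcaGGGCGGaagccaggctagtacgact
Acadvl, chr11:70015429-70015508, minus strand: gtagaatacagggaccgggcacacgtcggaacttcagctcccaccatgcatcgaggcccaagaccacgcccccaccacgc
Hadhb, chr5:30155168-30155247, plus strand: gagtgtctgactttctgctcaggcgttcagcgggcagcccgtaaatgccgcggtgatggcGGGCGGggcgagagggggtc
Eci1, chr17:24426561-24426640, plus strand: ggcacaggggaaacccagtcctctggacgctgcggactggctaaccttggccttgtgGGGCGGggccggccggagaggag
Etfdh, chr3:79628864-79628943, minus strand: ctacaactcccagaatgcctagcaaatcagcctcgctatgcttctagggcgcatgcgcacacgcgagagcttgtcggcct
The stretch of Hadhb lies in the gap between Hadha and Hadhb. Counted from the RefSeq start, the stretches end at base -22 for Cpt2, -39 for Slc25a20, -1 for Acadvl, -6 for Hadhb, -43 for Eci1 and -97 for Etfdh. In GENCODE M21 Etfdh starts at 79629500, so its stretch lies inside the gene by that annotation. Slc25a20 starts there at 108662088, which lies within its stretch.

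The 3 windows with an element of up to 2 mismatches belonged to Slc25a20, Echs1 and Etfa. That of Slc25a20 starts at base 7 of the transcript, and those of Echs1 and Etfa lie 83 to 71 and 77 to 65 bases before the start. The element is in capitals, and that of Etfa reads on the opposite strand.
Slc25a20, chr9:108662136-108662165, plus strand: gaatgtAGGTGAAAGGTCGgcggagccgct
Echs1, chr7:140116477-140116556, minus strand: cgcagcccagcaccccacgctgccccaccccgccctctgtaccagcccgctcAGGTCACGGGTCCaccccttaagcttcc
Etfa, chr9:55512244-55512323, minus strand: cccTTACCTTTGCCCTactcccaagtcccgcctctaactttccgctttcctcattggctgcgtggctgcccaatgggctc
Of the 3 genes, Slc25a20 was called lower in KO CDAHFD against WT CDAHFD, and Echs1 and Etfa were not (edgeR adjusted p = 0.821 and 0.969). A match is a description of letters in this window only.

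Cpt1a and Pdk4 varied with the time-of-day genes of the same library. A clock score was taken as the mean log2 CPM of 9 evening-high clock genes minus that of 5 morning-high ones, and it was -3.27, -2.94, 2.47 and 2.67 in WT chow, -2.77 and 0.89 in KO chow, -0.93, -1.88 and -1.79 in WT CDAHFD, and -1.42, -1.40 and 3.34 in KO CDAHFD. Cpt1a was high, at 672 to 735 CPM, in the 3 libraries with a score above 2, which come from WT chow and KO CDAHFD, and Pdk4 was lowest of its group in the same 3. Ppara in WT chow also split by score, at 120 and 96.2 CPM in WT chow 1 and 2 and at 238 and 226 CPM in WT chow 3 and 4. The WT CDAHFD libraries, all with scores under 0, had 59.5, 75.5 and 73.5 CPM of Ppara. With the score as a covariate the edgeR log2 difference of Cpt1a in KO CDAHFD against WT chow went from -0.35 ± 0.29 (adjusted p = 0.333) to -0.46 ± 0.12 (adjusted p = 0.00601), that against WT CDAHFD went from -0.23 ± 0.31 to -0.59 ± 0.13 (adjusted p = 0.0659), and that of WT CDAHFD against WT chow turned from -0.12 to 0.13. The covariate also brought Acadm in KO CDAHFD against KO chow past the threshold (-0.43 ± 0.12, edgeR adjusted p = 0.0432), as it did Acadl (adjusted p = 0.0225) and Acad11 (adjusted p = 0.023) in the same comparison and the interactions of Pdk4 (-1.48, adjusted p = 0.0193) and Acsl3 (-0.82, adjusted p = 0.0347). In KO CDAHFD against WT CDAHFD it took the count called lower from 6 to 9, where 0.766% of all genes were, and Acadl (-0.51), Acads (-0.62) and Acad11 (-0.52) were among the 9. Pdk4 stayed higher with the covariate, by 2.26 in KO chow and 2.42 in WT CDAHFD (edgeR adjusted p = 6.57e-05 and 1.41e-05), and in the 8 libraries with a score under 0, by 1.57 and 1.79, while without KO chow 1 its rise in KO chow was 1.92 and not called (edgeR adjusted p = 0.0933). No source used here gives the hour at which a liver was taken.

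**Figure D5:**
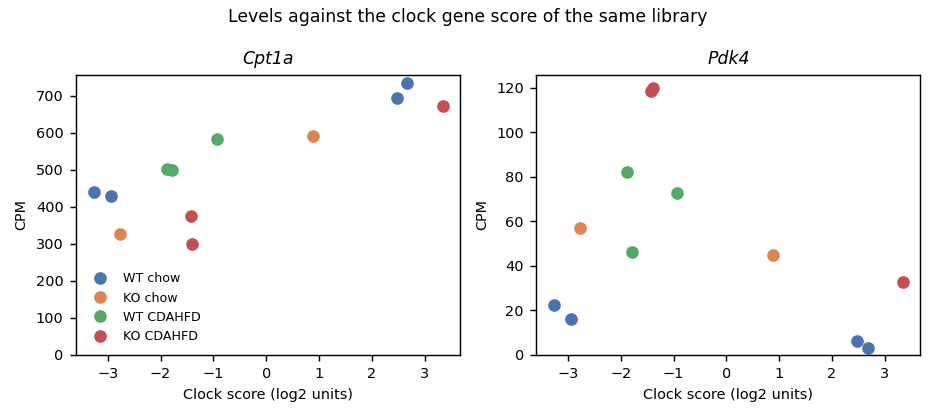
Each point is a library, with its clock score on the horizontal axis (log2 units) and the level of Cpt1a or Pdk4 in CPM on the vertical axis, coloured by group. In WT chow Cpt1a is at 428 and 438 CPM in the libraries with scores near -3 and at 693 and 735 CPM in those above 2, and Pdk4 falls from 22.5 and 16.2 to 6.04 and 2.84 CPM.

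Of 26 other genes of the pathway, listed for their roles in related acyl-CoA, propionate, ketone and pyruvate steps, 23 could be tested. In KO chow 14 were called lower and 4 higher, where 17.0% of all genes were lower and 22.0% higher, and in WT CDAHFD 15 lower and 5 higher, where 25.0% were lower and 26.1% higher. Their medians were -0.63 and -0.68, and the share called higher in WT CDAHFD lay near that of all genes. Among those lower by more than 1 on the log2 scale in KO chow or WT CDAHFD were Acsf2, an acyl-CoA synthetase (-1.36 in KO chow), Eci2, a peroxisomal and mitochondrial isomerase (-1.64 and -1.17), Acadsb, the dehydrogenase of short branched chains (-1.42 in WT CDAHFD), Hsd17b10, a short-chain hydroxyacyl dehydrogenase (-1.25 in WT CDAHFD), Pcca, a propionyl-CoA carboxylase subunit (-1.02 in WT CDAHFD), Aacs, the cytosolic acetoacetyl-CoA synthetase (-1.34 and -1.77), Acacb, which makes the malonyl-CoA that blocks the shuttle (-1.63 in WT CDAHFD), and the pyruvate dehydrogenase kinase Pdk1 (-1.89 and -1.63). Higher by more than 1 were Cpt1c, the brain form of the transferase (1.55 and 1.98), Acss1, a mitochondrial acetate synthetase (1.89 and 2.61), the kinase Pdk3 (2.05 and 2.49) and the monocarboxylate carrier Slc16a7 (1.40 in WT CDAHFD). Of these, Cpt1c, Acss1 and Pdk3 did not pass 3.48 CPM in any library. Among the kinases of this enzyme complex, Pdk1 was thus lower and Pdk3 and Pdk4 higher in KO chow and in WT CDAHFD. Pdk2, with a mean of 120 CPM in WT chow, was also called lower, at -0.96 and -0.50 (edgeR adjusted p = 0.00232 and 0.0282). In KO CDAHFD against WT CDAHFD edgeR and DESeq2 called 0 and 3 of the 23 lower and neither called any higher, where they called 0.271% and 0.755% of all genes lower. EdgeR had 3 lower and 1 higher at an unadjusted p under 0.05, where 4.01% and 4.76% of all genes were.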

How the data were processed

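Poly-A RNA of snap-frozen liver was made into non-directional libraries and sequenced on an Illumina platform. Per the submitters' notes, reads were checked with FastQC 0.11.5 and aligned to GRCm38 with STAR 2.7.3a, and the authors used DESeq2 for differential expression. The deposited file holds raw read counts per Ensembl gene; the program and annotation used for counting are not given in the sources used here. Names and exon lengths came from GENCODE M21. Counts were tested with edgeR 4.0.16 on R 4.3.3, with TMM scaling, filterByExpr by group, a mean per group over all 12 libraries and Benjamini-Hochberg adjustment over 17358 genes. Confidence intervals are 95%. SE is the fold change over the root of F. In data simulated for KO chow against WT chow, 60 of 100 genes changed 2-fold and 95 of 100 changed 4-fold were recovered. All 37 genes are described by role, some by their fold changes and calls alone. Values per mouse are given for genes called with a log2 change of at least 1, called in opposite directions, or highest in their role. The genes, lists and tests were chosen with earlier results of these data known. The labels name no batch and do not say that libraries come from separate mice, so p-values measure the spread between samples. The study's methods state 3 mice per group, while the labels give 4, 2, 3 and 3. The libraries were not directional, and how the counting treated reads of overlapping genes is not known, so such reads could have been shared. Overlapping genes reached 10% of a gene's counts for Acsl3 (Utp14b, 32.3%), Acsl5 (Zdhhc6, 28.6%), Acsm3 (Eri2, 12.1%) and Echs1 (Paox, 14.8%). Alternatives were other scalings, DESeq2 1.42.0, every gene with a count, a replicate block, the clock score as a covariate, each library left out, and, added after seeing the data, the 8 libraries with a clock score under 0. The values of 1 of the other pathway genes are not reported here.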

Additional observations from a re-analysis of the deposited data

Results flagged for a closer look

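In 11 of the 37 genes the effect of the deletion differed between the diets by a test of the difference itself, the edgeR interaction of genotype and diet. It was called above 0 for 8, where 8.63% of all genes were, and below 0 for 3, where 14.5% were, so the second share lay under that of all genes. Scaling by total count alone gave 5 above and 10 below, with a median interaction of -0.221 over the 37 genes and -0.34 over all genes. Leaving out 1 library gave 5 to 12 above. The interaction, on the log2 scale, was above 0 for Acsl1 (1.39), Acsm1 (1.08), Acsm2 (3.25), Acsm3 (1.56), Acsm5 (1.21), Acaa2 (0.71), Bdh2 (1.38) and Acat1 (0.74), which means a smaller fall or none by KO under CDAHFD than on chow. It was below 0 for Acsl4 (-1.25), Oxct1 (-1.57) and Ucp2 (-1.38), which means a smaller rise or none. Under some of the 19 alternatives the call was lost for Acat1 (kept in 11), Acaa2 (13), Acsm5 (14) and Bdh2 (18). Acsm2 rests on 16 to 158 counts a library. No gene of the 37 had a WT chow library, the only group of 4, set far apart from the other 3 by Dixon's criterion at the 95% level.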

How the results depend on the processing

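Across 19 alternatives, 63 of 120 values per gene and comparison kept both direction and side of the threshold in all of them, and 81 did so whenever 1 library was left out. The cause of each change below was not tested, beyond the shift of all genes that the scaling itself makes. Counts given below without a share of all genes describe the 37 genes alone.

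With each library scaled by its total count alone, 14 members were called lower and 9 higher in KO chow, 9 lower and 11 higher in WT CDAHFD, whereas 17 were lower and 8 higher in KO CDAHFD, each against WT chow. Of all genes, 6.62%, 6.74% and 6.31% were then lower and 40.5%, 52.4% and 56.3% higher. KO CDAHFD against KO chow then gave 3 lower and 2 higher, and the interaction of genotype and diet gave 10 below 0 and 5 above, where 0.795%, 7.17%, 24.6% and 3.89% of all genes were called. The members' median log2 fold change under this scaling was -0.184 for KO chow, 0.027 for WT CDAHFD and -0.335 for KO CDAHFD against WT chow, -0.061 in KO CDAHFD against KO chow and -0.221 for the interaction. Among called values and those of Cpt1a, the fold changes that turned upward under it were those of Cpt1a (0.089) and Echs1 (0.01) in KO chow, of Cpt1a (0.451), Acsl5 (0.027), Acads (0.194), Hadha (0.085), Hadhb (0.235, called higher) and Decr1 (0.017) in WT CDAHFD, and of Cpt1a (0.293), Acad10 (0.173) and Hadh (0.264) in KO CDAHFD against WT chow. With values that were not called, 5, 12 and 5 of the 37 turned, among them Acadl (0.298, called higher) and Hadh (0.303, called higher) in WT CDAHFD and Acadm (0.343 and 0.392, called higher) in WT CDAHFD and KO CDAHFD. Of the genes called in no comparison with TMM scaling, Acad9, Acadm and Bdh1 passed the threshold in at least 1 comparison under this scaling, and Cpt1b did with DESeq2. The interactions of Slc25a20 (-0.346), Acadvl (-0.06) and Etfdh (-0.307) turned below 0, as did those of 8 other genes, none of them called.

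Library numbers are shared between groups, but same-numbered libraries correlated at -0.242 to 0.266 in their deviations from the group means, so the numbers were not taken as pairs. With the replicate block, 4 members were called lower and 2 higher in KO CDAHFD against KO chow, where the members' median was -0.268 and that of all genes -0.014. Cpt1a was then at 0.023 in KO chow and 0.091 in WT CDAHFD, and the Slc25a20 interaction was -0.098. With the clock score as a covariate, 5 members had an interaction called below 0, with a median of 0.043 over the members and -0.001 over all genes. Cpt1a was then at 0.126 in WT CDAHFD and the Slc25a20 interaction was -0.104. With every gene that had a count kept, 5 members had an interaction called below 0, with a median of 0.093 over the members and -0.014 over all genes. The interaction of Slc25a20 was then -0.032. Among the libraries with a clock score under 0, a setting chosen after seeing the data, the median against WT chow was -0.476 for KO chow, -0.405 for WT CDAHFD and -0.78 for KO CDAHFD. In KO CDAHFD against KO chow, with KO chow 1 as the only KO chow library, the median was -0.184 over the members and 0.019 over all genes. Cpt1a was at 0.286 in WT CDAHFD and the Slc25a20 interaction was -0.363.

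Leaving out 1 library at a time, the members called higher ranged from 3 (without KO chow 1) to 5 in KO chow and from 3 (without KO CDAHFD 3) to 5 in KO CDAHFD against WT chow, and the median from -0.723 to -0.501 and from -0.972 to -0.835. In KO CDAHFD against KO chow, 1 to 11 members were called lower and 0 to 1 higher; the count of lower calls was 1 without either KO chow library and 3, 5 and 4 without KO CDAHFD 1, 2 and 3. The interaction was called above 0 for 5 (without KO chow 1 or WT CDAHFD 2) to 12 members, with a median of 0.067 to 0.274. Cpt1a ranged from -0.814 to 0.061 in KO chow and from -0.21 to 0.038 in WT CDAHFD, and the interaction from -0.119 to 0.137 for Slc25a20 and from -0.01 to 0.157 for Etfdh. Against WT chow, Acadm was called lower in WT CDAHFD (-0.281) and KO CDAHFD (-0.273) without WT chow 1, Bdh1 higher in KO CDAHFD (0.341) without WT chow 3, and Cpt1b lower in KO chow and KO CDAHFD without WT chow 2 or 3, and in KO CDAHFD without KO CDAHFD 1. Fits without a KO chow library assume that the lone one left varies like the other groups.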
